A study of Mus musculus with 10 samples.

Results

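The rim of liver cells around the central veins was examined in 3 Visium sections of mouse liver, NEJ638, NEJ654 and NEJ677. Visium slides capture the polyadenylated RNA of a frozen tissue section on barcoded spots, where it is counted by unique molecular identifiers (UMIs), and each spot takes up RNA from several cells. Within each section, spots over tissue with at least 2000 UMIs were ranked by their UMIs of Cyp2e1 per 10000 UMIs, and the upper of 3 equal parts was taken as pericentral. Among these spots, the 10% richest in Glul were called the rim, and the 50% poorest in Glul were the other pericentral spots with which the rim was compared. The rim held 112 spots in NEJ638, 80 in NEJ654 and 80 in NEJ677, or 272 of the 8111 spots used in these sections and of the 49916 spots listed over all 10 sections of the series. The other pericentral spots numbered 557, 396 and 400, or 1353 in all. The remaining pericentral spots, 444, 316 and 320 in number, lay between both by Glul and are called intermediate.

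The labels give all 10 sections as hepatoblastoma in frozen mouse liver, without a genotype, age or treatment for any of them. In the study's account these 3 sections are normal livers from control littermates of the ABC-Myc mice. In ABC-Myc mice, Cre recombinase made in hepatocytes under the Alb promoter switches on a Myc transgene at the CAG promoter. A control littermate could carry the Cre allele alone, the Myc allele alone or neither, on a C57BL/6J background, and which of these applied to each section was not given in the sources used here. The whole tissue was hepatocyte-rich in each section. Alb, the main plasma protein of hepatocytes, stood at 69841, 85716 and 51708 CPM (UMIs of a gene per 1e6 UMIs) in NEJ638, NEJ654 and NEJ677. The fetal growth factor Igf2 had 6, 7 and 10 UMIs and the fetal marker Dlk1 5, 7 and 1 UMIs over all used spots of the sections, while Afp, the fetal counterpart of albumin, was at 9.64, 3.79 and 4.94 CPM. Xist, which is transcribed in female cells, had 2395, 2098 and 1 UMIs, and the Y-linked Ddx3y had 0, 0 and 948. NEJ677 thus differed from NEJ638 and NEJ654 in sex-linked RNA. H19, a fetal imprinted RNA, was at 80.3, 6.31 and 4.83 CPM and so was highest in NEJ638.

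Blood crosses the liver lobule from the portal vein and hepatic artery to the central vein, and hepatocytes along this path divide their work. Periportal hepatocytes make urea and glucose, whereas pericentral ones hold most drug-metabolising cytochromes P450. The innermost cells around the central vein make glutamine synthetase, encoded by Glul, which binds ammonium that escaped urea synthesis. Endothelial cells of the central vein release Wnt proteins and R-spondin 3, and beta-catenin in nearby hepatocytes then activates Glul and other pericentral genes.

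The spots were chosen by their Cyp2e1 and Glul levels, so these levels are a description only. Glul lies on chromosome 1 from 153899944 to 153909723 and Cyp2e1, which encodes an ethanol- and drug-oxidising cytochrome, on chromosome 7 from 140763739 to 140774987 (GENCODE M21 on GRCm38). Glul was at 1838, 2765 and 2295 CPM in the rims of NEJ638, NEJ654 and NEJ677 and at 204, 342 and 198 CPM in their other pericentral spots. The rim spots poorest in Glul had 14.242, 22.131 and 18.982 Glul UMIs per 10000, and the richest spots just outside had 14.238, 22.068 and 18.936. At the limit by Cyp2e1, the poorest pericentral spots had 29.176, 40.976 and 33.461 UMIs per 10000 and the richest spots outside had 29.168, 40.970 and 33.448. The rim was also richer than the comparison in Cyp2e1, with 5579, 7282 and 6107 against 3739, 5253 and 4308 CPM. Rim and comparison therefore differed in Cyp2e1 as well as in Glul, and counts and values from spots closer in Cyp2e1 are given beside many of the lists.

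Rim spots lay beside each other more often than their share of the spots. Of the adjacent spots of rim spots, 17.8, 14.2 and 12.1% were themselves rim in NEJ638, NEJ654 and NEJ677. Around intermediate spots these shares were 7.57, 10.2 and 9.66%, and around other pericentral spots 5.45, 5.86 and 6.57%. Rim spots also had more pericentral neighbours, 76.5, 83.8 and 83.9%, against 59.9, 64.9 and 66.9% for intermediate and 47.9, 54.2 and 51.9% for other pericentral spots. How far the touching of rim spots followed from this was not tested. The rims formed 70, 55 and 57 groups of touching spots, of which 56, 42 and 41 were single spots, and the largest groups held 13, 6 and 5 spots. Rim spots were deeper, with median UMIs of 16409.5, 22681 and 19690.0 against 14144, 20298.5 and 16092.5. At 2000 UMIs drawn from each spot, the median number of genes was 1017, 991 and 989 in the rim and 1008, 966 and 965 in the comparison. Rim spots at an outer edge or beside a gap made up 30.4, 27.5 and 5% of the rims and 13.5, 16.4 and 10% of the other pericentral spots, so they were more frequent in the rim in NEJ638 and NEJ654 and less so in NEJ677. With these spots left out, a step added after seeing the data, the test described below called 394 genes higher and 353 lower, and Slc1a2 and Cps1 differed by 3.13 and -1.33 on the log2 scale.

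**Figure D1:**
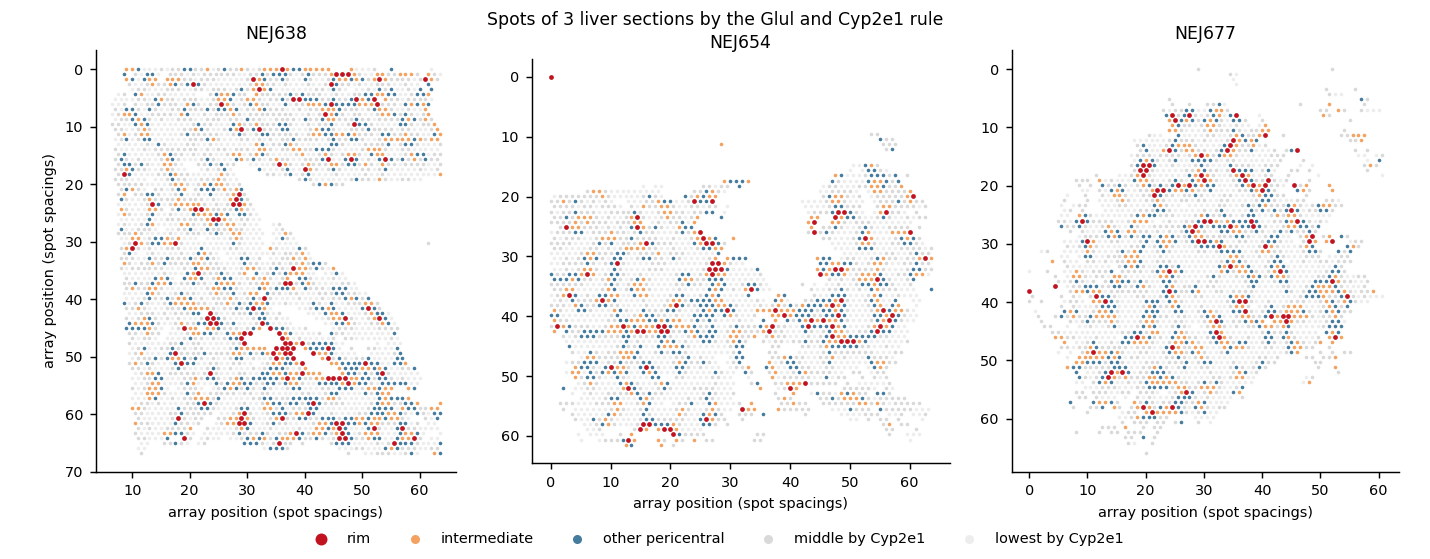
Used spots of the 3 sections at their array positions, coloured as rim, intermediate, other pericentral, middle by Cyp2e1 and lowest by Cyp2e1. Rim spots, 112, 80 and 80 in number, appear as small patches and single spots scattered through the pericentral areas.

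UMIs were summed over the rim and over the other pericentral spots of each section, which gave 2012354, 1797967 and 1475789 UMIs for the rims and 9663453, 8205077 and 6855528 for the comparison. The section was the replicate (n = 3), and edgeR's quasi-likelihood test was fitted with the section as a block. Of 10631 genes tested, excluding Glul and Cyp2e1, 427 were higher in the rim (4.02%) and 396 were lower (3.72%) at an adjusted p under 0.05, 7.74% in all. A gene entered the test with at least 2.27 CPM in 3 of the 6 sums. All 3 rims but not all 3 comparison sums reached this for 247 genes, 59 of them called higher. A high rim helped such genes into the test, so those in the Wnt, vein, stellate, fatty acid oxidation and cell cycle lists are named there. The reverse, all 3 comparison sums but not all 3 rims at the limit, held for 551 genes. A difference of at least 2-fold was found for 152 of the higher genes and 33 of the lower. The labels give each section a tissue number of its own and the study describes the tissues as livers. With the section as a block, p-values weigh the difference within sections against a spread that edgeR estimates in part from all genes. The SE of a log2 difference comes from the same fit, over 3 livers with 1 section each. Both can understate how far a gene's own 3 differences lay apart. Scd1, for 1, was called with an SE of 0.091 although its log2 differences in NEJ638, NEJ654 and NEJ677 were 0.30, -0.46 and -0.61. Without the section as a block, 6 genes were called, all higher in the rim, with 496 genes at an unadjusted p under 0.05, and DESeq2 called 178 higher and 138 lower. With totals in place of TMM factors, which moved the median of all genes from -0.00958 to 0.050 on the log2 scale, 70.3% of calls were higher in the rim in place of 51.9%. In spots, fewer cells of a type and less RNA per cell cannot be told apart.

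**Figure D2:**
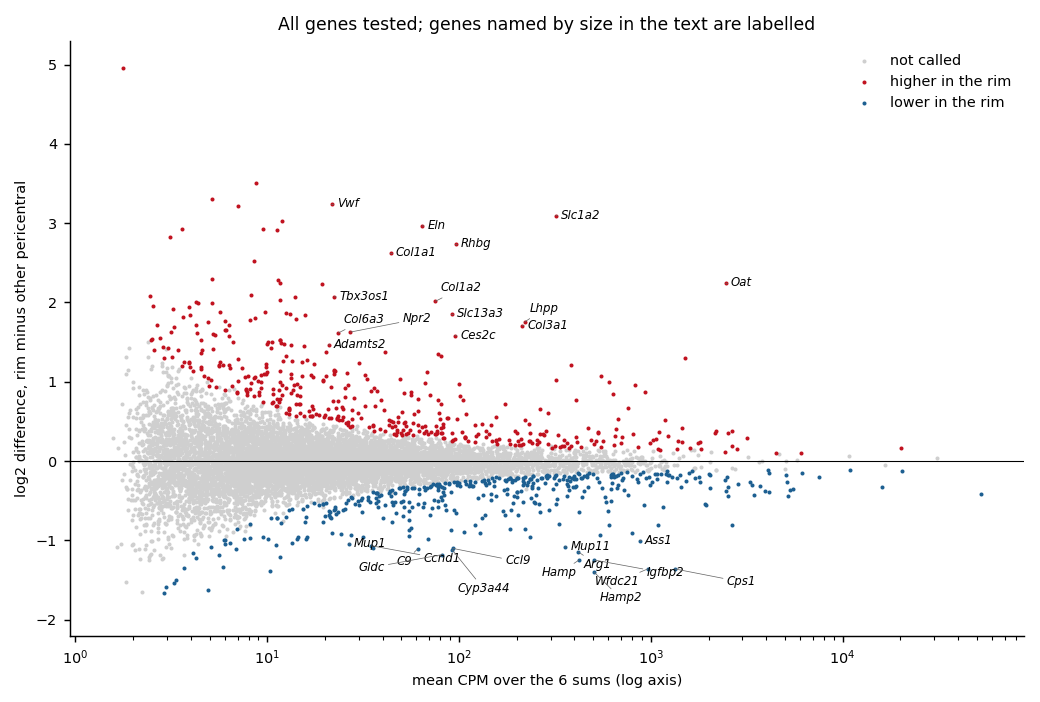
Log2 difference of rim minus other pericentral spots for each gene tested, against its mean level in CPM on a log axis, with called genes coloured. Slc1a2, Oat and Rhbg are among the called genes above 0, and Cps1, Arg1 and Ass1 among those below.

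Apart from genes of the vein, the largest differences among called genes of at least 20 CPM were in transporters of glutamate and ammonium. Slc1a2, a glutamate transporter (chromosome 2, 102658659 to 102790784), was at 579, 640.2 and 502 CPM in the rims and 54.8, 99.7 and 43.9 CPM in the other pericentral spots of NEJ638, NEJ654 and NEJ677. Every rim was above every comparison, and the log2 difference was 3.10 ± 0.10 (SE, n = 3), or 8.55-fold, with an adjusted p of 2.26e-16 by edgeR. Of rim spots drawn to 2000 UMIs, 68.8, 70 and 65% had a Slc1a2 UMI, against 12.0, 16.7 and 11% of other pericentral spots and 6.92, 12.4 and 4.75% of the spots lowest in Cyp2e1. With all UMIs of each spot, these shares were 98.2, 98.8 and 96.2% in the rim and 53.1, 79.3 and 46% in the other pericentral spots. Slc1a2 UMIs were thus found in most rim spots and, at lower shares, in the rest of the tissue.

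Rhbg, an ammonium transporter of the cell membrane (chromosome 3, 88242874 to 88254709), was at 183, 191 and 127 CPM in the rims and 23.8, 30.6 and 18.8 CPM in the comparison. This was a difference of 2.73 ± 0.083 on the log2 scale (edgeR adjusted p = 2.26e-16). Oat, ornithine aminotransferase, which turns ornithine toward glutamate (chromosome 7, 132557478 to 132576398), was at 3073, 5479 and 3579.8 CPM against 574, 1470.3 and 594 CPM. Its log2 difference was 2.24 ± 0.074 (edgeR adjusted p = 4.48e-16), and it was the most abundant of these genes in each rim. Each of the 3 genes was highest in the rim of NEJ654, and for each the lowest rim exceeded the highest comparison.

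Slc13a3, a transporter of dicarboxylates, rose by 1.85 ± 0.13 (log2) from 52.6, 44.6 and 17.4 to 139, 190.2 and 106 CPM. Slc1a4, a transporter of neutral amino acids, rose by 1.07 ± 0.17, Car2, a carbonic anhydrase, by 0.70, and the proline-degrading enzymes Prodh and Aldh4a1 by 0.65 and 0.26. Other members of the list of 20 genes of glutamine and ammonium handling moved the other way. Gls2, the liver glutaminase that releases ammonium from glutamine, fell by 0.63 on the log2 scale, and the aminotransferase Got1 fell by 0.68. The amino acid transporters Slc38a3, Slc38a4 and Slc7a2 fell by 0.18, 0.45 and 0.39. Of 18 members tested, 8 were higher, 5 were lower and 5 were not called, and their median log2 difference of 0.031 was near that of all genes tested, -0.0096. Glud1, Got2, Gpt and Gpt2, the broadly used glutamate dehydrogenase and aminotransferases, had values from -0.10 to 0.046 and did not pass. Of the 18 members, 6 were higher and 2 lower in spots paired within 5% of Cyp2e1, chosen after seeing the data, with a median of -0.024. The share called over all genes was 4.74% there.

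**Figure D3:**
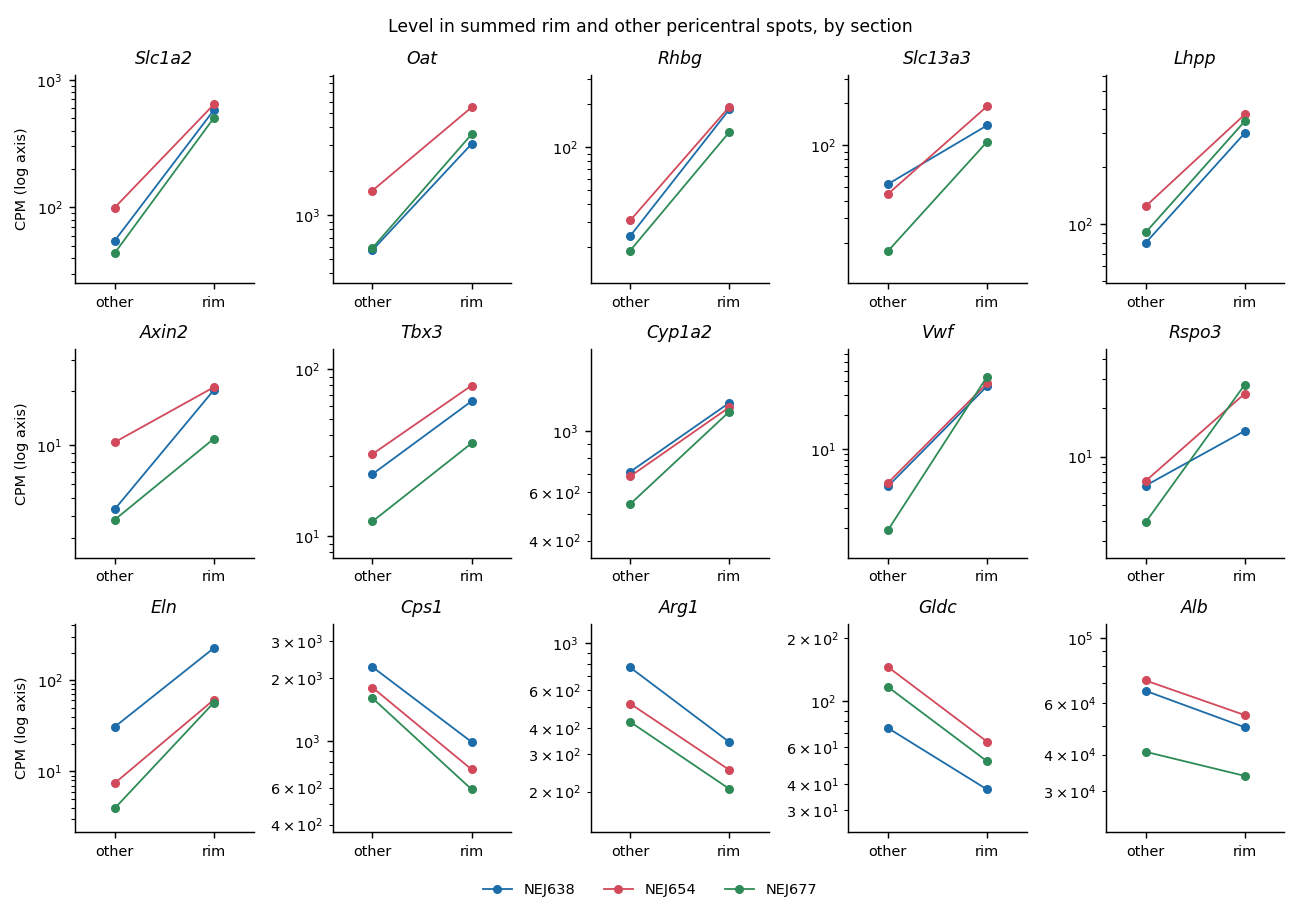
CPM on log axes of named genes in the rim and in the other pericentral spots, with a line joining the 2 values of each section. For Slc1a2, Oat and Rhbg all lines rise toward the rim, and for Cps1 all fall.

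Wnt feedback and target genes were mostly higher in the rim. Of the 15 list members 13 could be tested, and Sp5, Tcf7 and Tnfrsf19 among them reached the limit of the filter in all rims but not in all comparison sums. Of the other 10, 7 were higher and 1 was lower, with a median of 1.09. Axin2, which restrains beta-catenin and is itself induced by it, was at 20.4, 21.1 and 10.8 CPM in the rims and 4.35, 10.4 and 3.79 CPM in the comparison, a log2 difference of 1.48 ± 0.23 (edgeR adjusted p = 6.47e-05). Lgr5, a receptor for R-spondins, was at 19.4, 24.5 and 8.81 against 9.003, 5.48 and 2.77 CPM, or 1.53 ± 0.22. NEJ677 had the lowest rim for both, and its Lgr5 level there was below that of the other pericentral spots of NEJ638, so the Lgr5 groups overlapped while each section kept the direction.

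The transcription factor Sp5 was at 20.9, 22.2 and 14.9 against 4.14, 5.36 and 2.19 CPM and differed by 2.24 ± 0.21. A high rim helped Sp5 into the test, so no p is given. Nkd1, an intracellular brake on Wnt signalling, was at 21.4, 22.2 and 24.4 against 5.38, 5.24 and 4.67 CPM and differed by 2.07 ± 0.19. Nkd1 varied little among the 3 rims and among the 3 comparisons. Tbx3, a transcription factor of pericentral hepatocytes, was at 64.1, 79.5 and 35.9 against 23.5, 31.0 and 12.3 CPM, a difference of 1.37 ± 0.11. Tbx3os1, annotated antisense to Tbx3, differed by 2.07 ± 0.15, and since the strand used in counting was not given in the sources used here, reads of this pair cannot be told apart. Rnf43 and Znrf3, ligases that remove Wnt receptors, differed by 1.11 ± 0.13 and 1.06 ± 0.23, and Notum, a secreted enzyme that inactivates Wnt proteins, by 0.59 ± 0.091. Without NEJ638, Znrf3 stood at 0.87 with an adjusted p of 0.107.

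Ccnd1, which drives entry into the cell cycle and is often listed as a Wnt target, went the other way. It fell by 1.07 on the log2 scale, from 73.9, 33.9 and 32.4 to 39.8, 12.8 and 16.9 CPM (edgeR adjusted p = 1.97e-06). Among the list's other transcription factors, Tcf7 stood at 0.58 ± 0.38, Tcf7l2 at 0.0016 and Zbtb20 at -0.087, and none of the 3 passed the test.

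The proximal promoters of a set of 21 genes, fixed for this work whether or not they were called, were searched for the core motif of the TCF factors, which carry beta-catenin on DNA, spelt CTTTGAA or CTTTGAT on either strand. A RefSeq promoter (GRCm38.p6) was at hand for 12 of these genes, and 3 held the motif within 250 bases before the start. These were the glutamate transporter Slc1a2, the Wnt target Sp5 and the cytochrome gene Cyp1a2, all higher in the rim. A high rim helped Sp5 into the test. The 3 promoters are shown as they join the largest called difference outside the vein at 20 CPM or more, Wnt targets and pericentral cytochromes. They lie at chr2:102706188-102706437 (plus strand), chr2:70474673-70474922 (plus strand) and chr9:57683656-57683905 (minus strand), are written 5′ to 3′ along the gene's strand, and carry the motif in capitals. The Slc1a2 promoter belongs to a RefSeq start that lies inside the gene as GENCODE M21 bounds it.
Slc1a2: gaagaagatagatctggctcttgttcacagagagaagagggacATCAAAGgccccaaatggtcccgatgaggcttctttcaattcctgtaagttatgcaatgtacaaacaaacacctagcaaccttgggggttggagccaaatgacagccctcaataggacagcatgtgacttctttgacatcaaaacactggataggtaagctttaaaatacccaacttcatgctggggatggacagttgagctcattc
Sp5: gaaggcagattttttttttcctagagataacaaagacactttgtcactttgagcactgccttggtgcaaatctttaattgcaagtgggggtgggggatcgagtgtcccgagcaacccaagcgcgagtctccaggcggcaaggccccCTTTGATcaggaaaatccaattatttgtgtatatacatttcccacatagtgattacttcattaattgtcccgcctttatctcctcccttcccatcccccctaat
Cyp1a2: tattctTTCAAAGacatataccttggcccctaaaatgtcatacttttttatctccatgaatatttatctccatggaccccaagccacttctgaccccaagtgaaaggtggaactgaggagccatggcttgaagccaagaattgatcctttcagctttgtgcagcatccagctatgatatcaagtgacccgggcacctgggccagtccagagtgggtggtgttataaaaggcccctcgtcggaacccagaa
The motif began 207 bases before the start of Slc1a2, 104 before that of Sp5 and 244 before that of Cyp1a2. It was in the promoters of 32 of 326 genes higher in the rim (9.82%), of 20 of 309 lower genes (6.47%), of 553 of 8412 genes tested (6.57%) and in 2457 of all 32851 promoters of the same length (7.48%). A match describes letters in this window and no more, and Oat, Axin2 and Nkd1 had none there.

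Pericentral enzymes of drug and xenobiotic metabolism were higher in the rim for 17 of 23 members tested and lower for 2, with a median log2 difference of 0.36. Their differences were smaller than those of Slc1a2, Rhbg and Oat. Cyp2a5, a coumarin- and nicotine-oxidising cytochrome with the near-identical copy Cyp2a4, was at 2177, 1604 and 2742 CPM in the rims and 906, 753 and 837 CPM in the comparison (1.303 ± 0.067, edgeR adjusted p = 1.32e-12). The glutathione transferases Gstm2 and Gstm3 differed by 1.21 ± 0.049 and 1.07 ± 0.059. Gulo, the last enzyme of vitamin C synthesis, was at 1139, 1142 and 1034 against 593, 568 and 482 CPM (0.96 ± 0.042), and Cyp1a2 at 1266, 1219.7 and 1176 against 711, 684 and 542 CPM (0.87 ± 0.048). For Gulo and Cyp1a2, the 3 rims lay close together and above all 3 comparisons. Cyp2c29, Cyp2c37 and Cyp2c50, members of a family of near-identical copies whose UMIs may be shared, differed by 0.42, 0.66 and 0.28.

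The carboxylesterases split. Ces2c rose by 1.58 ± 0.078, from 33.7, 32.8 and 74.4 to 114, 104 and 214 CPM, while Ces1e fell by 0.62 and Ces1d by 0.18 on the log2 scale. Cyp3a11, a major drug-oxidising cytochrome, stood at 0.088 and did not pass. Lhpp, a histidine and lysine phosphatase, was at 301, 377 and 347 against 79.7, 124 and 90.4 CPM (1.75 ± 0.064), and Npr2, a natriuretic peptide receptor, at 27.3, 65.1 and 31.2 against 7.24, 17.3 and 14.9 CPM (1.63 ± 0.15). Both genes were outside the lists and were named by the size of their difference. In spots paired within 5% of Cyp2e1, a comparison chosen after seeing the data in which 4.74% of all genes were called, Slc1a2 differed by 2.56, Rhbg by 2.12, Oat by 1.78 and Lhpp by 1.303. Cyp2a5, Gstm2, Gulo and Cyp1a2 differed there by 0.83, 0.77, 0.62 and 0.56, all still called, whereas Axin2 stood at 0.97 with an adjusted p of 0.106. Slc1a4 stood at 0.40 and Notum at 0.29 and neither was called. Over the lists, 10 of 23 drug and xenobiotic enzymes were higher and 2 lower in the paired spots, with a median of 0.17, and 4 of 9 Wnt genes that could be tested were higher and 1 lower, with a median of 0.97.

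Ahr, the dioxin receptor, was at 40.3, 28.9 and 25.1 against 25.7, 24.3 and 14.3 CPM (0.49 ± 0.14, edgeR adjusted p = 0.0234), and besides Cyp1a2 none of the tested Ahr targets was called, with Tiparp at -0.038 and Nqo1 at 0.33. Of 8 genes of heme synthesis, which supplies the cytochromes, 3 were higher and 5 were not called. These were Alad at 0.52 ± 0.056, Cpox at 0.38 ± 0.086 and Alas1, the rate-limiting step, at 0.24 ± 0.056. Alas1 was at 1034, 86.2 and 224 CPM in the rims and 885, 71.9 and 165 CPM in the comparison, so sections differed far more than rim and comparison did. The call of Ahr was lost without NEJ638 (0.42) or NEJ677 (0.42), that of Cpox without NEJ638 (0.31) and that of Alas1 without NEJ677 (0.18). Of the 8 heme genes, 1 was higher in spots paired on Cyp2e1, Alad at 0.33, and Ahr at 0.51 was not called.

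Genes of the central vein itself rose with the rim. Of 11 genes of central vein endothelium, Cdh13, Lhx6, Selp, Vwf and Wnt9b reached the limit of the filter in all rims but not in all comparison sums, so a high rim helped them into the test. Of the other 6, 4 were higher and none lower, with a median of 1.11. Of 11 tested genes of vein wall, fibroblasts and smooth muscle, Acta2 and Dpt passed through the rims in the same way, and of the other 9, 7 were higher, with a median of 1.13. Vwf, the von Willebrand factor of large-vessel endothelium, was at 36.3, 38.4 and 44.0 CPM in the rims and 4.66, 4.997 and 1.90 CPM in the comparison (3.24 ± 0.21 on the log2 scale), and no p is given because a high rim helped it into the test. Each rim was above each comparison. The signals of the vein endothelium followed. Wnt9b, a Wnt ligand, had 13, 6 and 14 UMIs in the rims and 5, 7 and 7 in the larger comparison sums, and no test is given because it passed the filter on its rims. Wnt2, another ligand, was at 14.9, 20.02 and 20.3 against 7.14, 8.78 and 8.75 CPM (1.10 ± 0.18). Rspo3, R-spondin 3, was at 14.4, 24.5 and 27.8 against 6.62, 7.07 and 3.94 CPM (1.79 ± 0.23). Of the endothelial list, Kit at 0.59 and Plvap at 0.037 did not pass.

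Among matrix genes named by size, elastin, which was outside the lists, had the largest log2 difference. Eln was at 226, 61.2 and 56.9 against 30.8, 7.43 and 3.94 CPM (2.97 ± 0.12), and the fibrillar collagen Col1a1 at 149, 44.5 and 35.2 against 26.3, 5.97 and 3.35 CPM (2.62 ± 0.13). Both were several times higher in the rim of NEJ638 than in those of the other sections. Col1a2, Col3a1, Col6a3 and Adamts2, a collagen-processing enzyme, differed by 2.02, 1.71, 1.62 and 1.47. Dpt, a matrix protein, and Acta2, smooth muscle actin, differed by 2.52 and 2.09, while Dcn stood at 0.10 and Des at 0.47 without passing.

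The summed level of both vein lists was 1623, 1011 and 827 CPM in the rims and 658, 473 and 375 CPM in the comparison, so vein genes were higher on the same side as Glul in every section. Without spots at an edge or gap this level was 1218, 985 and 839 against 635, 464 and 374 CPM. To read the other genes where the vein genes were nearly level, rim spots at or below the median of the comparison spots in these lists were set against comparison spots chosen the same way, a step added after seeing the data. Only 8, 9 and 10 rim spots, 27 of 272, qualified, and their vein level was 475, 331 and 269 against 454, 303 and 214 CPM. They were still richer in Cyp2e1 than their comparison, by 0.66, 0.23 and 0.47 on the log2 scale. Their median UMIs were 9563.5, 19331 and 10227.5 against 14263, 19393.5 and 15609. In them Slc1a2 differed by 2.99, Rhbg by 2.47, Oat by 2.20, Slc13a3 by 1.83, Lhpp by 1.66, Ces2c by 1.53 and Cyp2a5 by 1.35, all called and close to their values in the whole rim. Tbx3 stood at 1.65 and was called. Axin2 at 1.24 (adjusted p = 0.712), Lgr5 at 0.99 (0.885), Nkd1 at 1.67 (0.512), Rnf43 at 0.64 (0.893) and Notum at 0.32 (0.92) were not called by edgeR in these few spots, and Znrf3 was at -1.28 (0.93). Of the 10 Wnt genes tested in these spots 1 was higher, with a median of 0.48, where 1.57% of all genes were called. The part of vein cells in the values of these Wnt genes was not tested further. Eln stood at 1.03 (0.688), Col1a2 at -0.34 and Col3a1 at -0.20, which the choice of spots fixes in part, since the collagens were in the lists used for it.

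Urea cycle genes were lower in the rim. Of 8 members, 6 were lower and none higher, with a median of -0.59. Cps1, carbamoyl phosphate synthetase, which brings ammonium into the cycle (chromosome 1, 67123026 to 67231259), was at 992, 733 and 589 CPM in the rims and 2262, 1804 and 1606 CPM in the comparison. The highest rim was below the lowest comparison, and the log2 difference was -1.36 ± 0.044, or 2.57-fold lower (edgeR adjusted p = 3.71e-16). At 2000 UMIs a spot, a Cps1 UMI was found in 85.7, 73.8 and 75% of rim spots and 99.1, 96.2 and 95% of other pericentral spots, so most rim spots still held Cps1 RNA.

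Arg1, arginase, was at 342, 253 and 206 against 769, 519 and 426 CPM (-1.15 ± 0.05) and Ass1, argininosuccinate synthase, at 592, 687 and 516 against 1125, 1326 and 1015 CPM (-1.003 ± 0.041). Otc and Asl, which make citrulline and arginine, fell by 0.65 and 0.53 and the ornithine carrier Slc25a15 by 0.23. Nags, which makes the activator of Cps1, stood at 0.00067 and Slc25a13 at -0.16, and neither passed. In spots paired within 5% of Cyp2e1, Cps1 differed by -1.08, Arg1 by -0.79 and Ass1 by -0.77. In the rim spots low in vein genes the same 3 stood at -1.40, -1.30 and -1.10, and all were called in both.

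Periportal enzymes were lower for 16 of 18 members and higher for none, with a median of -0.47. Gldc, which cleaves glycine, fell by 1.18 on the log2 scale, Pck1, the key enzyme of glucose synthesis, stood at 611, 174 and 375 against 1125, 373 and 603 CPM (-0.93 ± 0.056), and Hsd17b13, a lipid droplet protein, differed by -0.85. Cyp2f2, a periportal cytochrome, was at 252, 241 and 339 against 331, 291 and 400.1 CPM (-0.36 ± 0.052), and Cdh1, E-cadherin, at -0.36 (adjusted p = 0.286) did not pass. In spots paired within 5% of Cyp2e1, 6 of 17 periportal members were lower and Cyp2f2 stood at 0.023, while Gldc, Pck1 and Hsd17b13 kept -0.80, -0.60 and -0.48. Ftcd, an enzyme of histidine breakdown, was also called there at -0.32, and the median of the list was -0.21 there.

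Plasma protein genes were lower for 18 of 21 members, with a median of -0.33. Alb was at 49569.8, 54519.9 and 33848 CPM in the rims and 65936, 71529.5 and 40883 CPM in the comparison, a difference of -0.41 ± 0.025 (edgeR adjusted p = 2.61e-11). It was lower in the rim of every section, although the sections themselves spread more widely. Hp, haptoglobin, fell by 0.54, Fgg and Fgb, chains of fibrinogen, each by 0.43. C9 of the complement pore, a plasma protein outside the list, fell by 1.11. The Serpina1 genes, near-identical copies of the gene for alpha-1 antitrypsin, fell by 0.29 to 0.91, and Ttr at -0.045 did not pass. In spots paired within 5% of Cyp2e1, 14 of the 21 were lower, with a median of -0.30.

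The iron hormone hepcidin was among the genes with the largest falls. Hamp2 was at 13.9, 646 and 198 against 31.4, 1645 and 516 CPM (-1.40 ± 0.055) and Hamp at 3.98, 372 and 395 against 7.24, 931 and 827 CPM (-1.25 ± 0.062). The 2 genes are near-identical copies whose reads may be split between them, and NEJ638 held little of either. Wfdc21, a secreted protein, was at 92.4, 681 and 894 against 229, 1722 and 2165 CPM (-1.36 ± 0.044), Igfbp2, which binds insulin-like growth factors, at 277, 269.7 and 384 against 683, 602 and 834 CPM (-1.25 ± 0.049), and Ccl9, a chemokine, at 76.5, 56.7 and 48.8 against 153, 122 and 101 CPM (-1.10 ± 0.08). All 3 were lower in each rim, and for Igfbp2 and Ccl9 the groups did not overlap. Over all genes tested, the ranges of the groups did not overlap for 9.93% of genes, with the rim higher for 6.9% and lower for 3.03%.

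The fall of Cyp3a44 rests on NEJ638 and NEJ654. It was at 66.6, 109 and 0.678 against 118, 257 and 0.875 CPM (-1.12 ± 0.095). It was near 0 in NEJ677, the section with Y-linked RNA, where it had 1 UMI in the rim. The major urinary protein genes Mup1 and Mup11, near-identical copies, were highest in NEJ677 and differed by -1.04 and -1.08. These falls rest on NEJ654, at -1.29 and -1.27, and on NEJ677, at -0.94 and -0.95. In NEJ638 the 2 genes had only 4 and 8 UMIs in the rim and differed by -0.32 and -0.16.

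Macrophage markers were lower in the rim. Of 10 Kupffer cell genes, 7 were lower and none higher, with a median of -0.57. The scavenger receptor Marco was at 12.4, 11.7 and 5.42 against 25.1, 18.8 and 12.7 CPM (-0.99 ± 0.18) and Vsig4, a complement receptor, at 15.4, 19.5 and 16.3 against 21.0, 39.7 and 34.3 CPM (-0.92 ± 0.15). Clec4f, which marks Kupffer cells, differed by -0.55, and the summed level of the list was 306, 407 and 291 CPM in the rims and 385, 597 and 477 CPM in the comparison. In spots paired within 5% of Cyp2e1 none of the 7 genes tested was called, and their median was -0.32. Red blood cell genes were lower for 3 of 5, with Hbb-bs at -0.98 ± 0.10, Hba-a1 at -0.91 and Hba-a2 at -0.68, and a median of -0.68. Against spots matched on Cyp2e1, where 5.5% of all genes were called, 1 of 5 was lower, with a median of -0.036, and in spots paired within 5% of Cyp2e1, 1 of 4, with a median of -0.16. The summed level of the red blood cell list was 146, 70.6 and 151 CPM in the rims and 251, 67.8 and 223 CPM in the comparison. It was thus lower in the rims of NEJ638 and NEJ677 and not in that of NEJ654. Hba-a1 was at 18.9, 8.90 and 18.97 against 43.7, 7.31 and 33.1 CPM, so it too was higher in the rim of NEJ654. Hba-a1 and Hba-a2 are near-identical copies, and Hba-a1 stood at -0.52 without NEJ638 and was then not called. Hba-a2 stood at -0.48 without NEJ677 and was not called either.

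Sinusoidal endothelium gave 1 lower gene of 11, Fcgr2b, an Fc receptor, at -0.58 ± 0.12, and no higher one. The share called over all genes was 7.74%. Of 10 stellate cell genes tested, the matrix gene Loxl1 reached the limit of the filter in all rims but not in all comparison sums and stood at 1.89. Of the other 9, Adamtsl2 was higher by 1.87 and Ecm1 was lower by 0.23, while the vitamin A enzyme Lrat stood at 0.23. None of 7 stellate genes tested was called in spots paired within 5% of Cyp2e1. Without NEJ654, Ecm1 stood at -0.20 and was not called. For bile duct, 1 of 7 genes could be tested, Spp1 at 0.056, and the duct keratins Krt19 and Krt7 were too low to test. Of 8 lymphocyte and neutrophil genes 2 were tested and neither was called. None of 11 cell cycle genes was called, with values from -0.65 for Mki67 to 0.45 for Mcm2. A high rim helped Mcm2 into the test. Ccnb1 and Ccnb2 reached the limit of the filter in all comparison sums but not in all rims.

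Other metabolic groups were mixed and small. In bile acid synthesis and transport, 3 of 14 genes were higher and 4 lower. Slco1b2, an uptake transporter, was at 1231, 1283 and 1267 against 919, 962 and 951 CPM (0.36 ± 0.038), with no overlap between groups. It stood at 0.17 in spots paired on Cyp2e1, and none of the 14 genes was called higher there. Cyp7a1, which sets the rate of bile acid synthesis, was higher by 0.35 ± 0.10 (adjusted p = 0.0243), though not in NEJ677, where it was at 22.4 CPM in the rim and 23.9 CPM in the comparison. Cyp8b1, which directs synthesis toward cholic acid, fell by 0.65. Abcb11, the bile salt export pump, and Baat, which conjugates bile acids, fell by 0.24 and 0.23. The Cyp7a1 call was lost without NEJ638 (0.41) or NEJ654 (0.25), and that of Baat without NEJ638 (-0.19).

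In cholesterol synthesis, 4 of 12 genes were lower and none higher, led by Hmgcs1 at -0.38 ± 0.056 and Idi1 at -0.36 ± 0.06. The median was -0.19, and in spots paired within 5% of Cyp2e1 it was -0.12 with 1 of 12 lower. In fatty acid oxidation, Pdk4, which restrains glucose oxidation, reached the limit of the filter in all rims but not in all comparison sums and stood at 1.41. Of the other 14 members 2 were higher, the omega-hydroxylases Cyp4a10 and Cyp4a14 at 0.53 ± 0.06 and 0.34 ± 0.055, and the median was 0.081. In the paired spots 1 of 13 was higher, with a median of 0.021. The share called over all genes was 7.74% in the whole comparison and 4.74% in the paired spots. In glycolysis and fatty acid synthesis, 1 of 11 was higher and 2 lower, and in the paired spots none was higher and 1 lower. Scd1, a desaturase, was at 769, 1099 and 1815 against 625, 1508 and 2766 CPM (-0.33 ± 0.091), higher in the rim of NEJ638 and lower in the other 2 rims. It stood at -0.58 without NEJ638 and -0.15 without NEJ677. Me1 at 0.25 and Thrsp at -0.20, a regulator of fat synthesis, lost their calls without NEJ638, at 0.17 and -0.22, and Thrsp also without NEJ677, at -0.16.

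Immediate early genes, which respond to handling of tissue, were lower for 2 of 8 tested, with Egr1 at -0.95 ± 0.23 and Ier2 at -0.41 ± 0.10. Egr1 was at 11.9, 9.46 and 12.2 against 13.8, 34.7 and 14.4 CPM, so its difference came mostly from NEJ654, without which it stood at -0.27 and was not called. None of the 6 that could be tested in spots paired within 5% of Cyp2e1 was called. Ier2 lost its call without NEJ638 (-0.34) or NEJ654 (-0.34). Of 12 mitochondrially encoded genes tested, 7 were lower, with a median of -0.17, where 7.74% of all genes were called. Without spots at an edge or gap 4 of 12 were lower, with a median of -0.10. With totals in place of TMM 4 of 12 were lower (median -0.11), and with DESeq2 2 of 12. In spots paired within 5% of Cyp2e1, 7 of 11 were lower, with a median of -0.20. The 12 genes and the untested one made up 2.06, 2.49 and 2.33% of rim UMIs and 2.37, 2.73 and 2.44% of those of the comparison. Among the called members the largest difference was in mt-Co1 at -0.27 ± 0.032, and mt-Nd1 at -0.16 lost its call without NEJ638 (-0.13) or NEJ654 (-0.13).

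**Figure D4:**
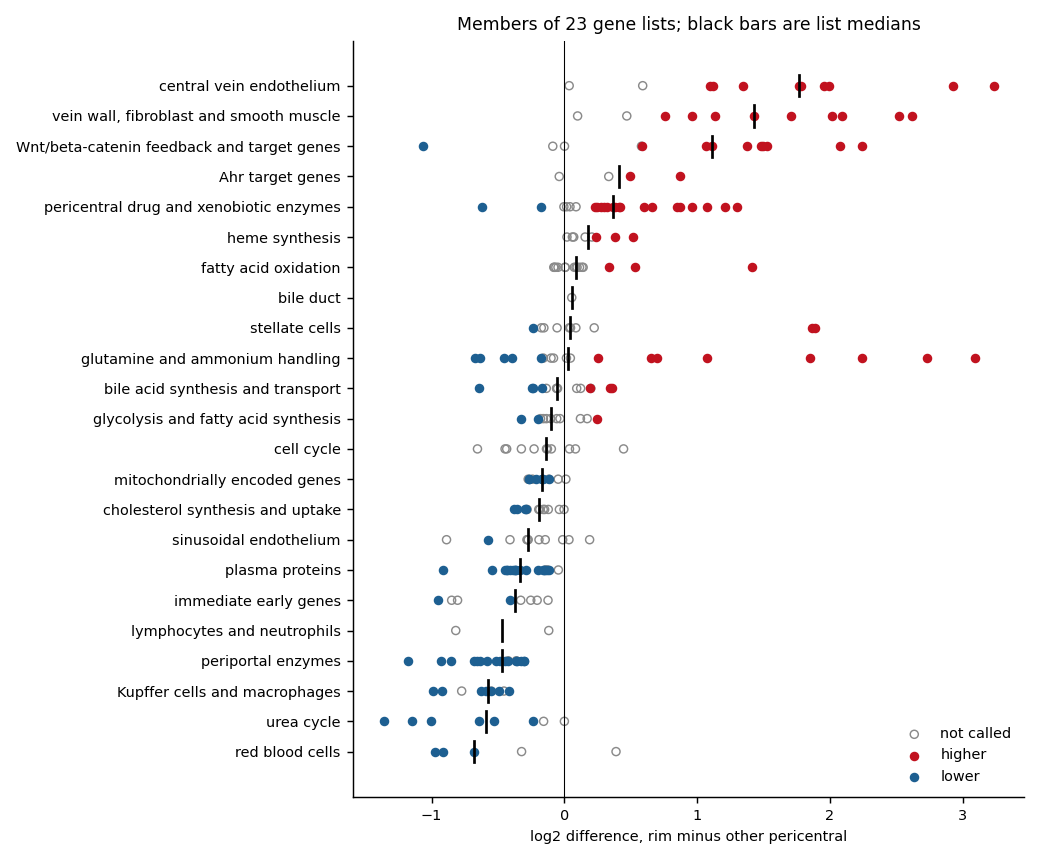
Log2 difference of rim minus other pericentral spots for the tested members of each gene list, with a bar at the list's median and called members filled. The vein and Wnt lists lie to the right, with medians of 1.77, 1.43 and 1.11 over all tested members (1.11, 1.13 and 1.09 without those that a high rim helped into the test), and the periportal, urea and plasma protein lists to the left, with medians of -0.47, -0.59 and -0.33.

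The rim was then placed along the lobule, with the spots lowest in Cyp2e1 (1113, 792 and 800 in number) as the far end. The other pericentral spots were compared with these by the same test, and 759 of 12120 genes were higher (6.26%) and 862 lower (7.11%), 13.4% in all. This comparison shares the other pericentral sums with the first, so its values are given side by side and not as support. Slc1a2 rose by 0.86 on the log2 scale from the far end to the other pericentral spots and by 3.10 from there to the rim, and Rhbg by 1.05 and 2.73. For Oat these values were 1.52 and 2.24, for Lhpp 1.81 and 1.75, for Cyp2a5 1.93 and 1.303 and for Cyp1a2 1.25 and 0.87. Nkd1 had 0.25, not called, and 2.07. Cyp2f2 stood at -2.13 along the lobule and at -0.36 at the rim, whereas Cps1 had -0.34 and -1.36.

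In mean levels over 3 sections, Slc1a2 ran from 35.8 ± 13.9 CPM (SD, n = 3) at the far end to 66.1 ± 29.6 in the other pericentral spots, 282 ± 68.0 in the intermediate spots and 574 ± 69.2 in the rim. Between sections, the spreads at the far end and in the other pericentral spots overlapped, and the rim stood apart from both. Paired by section, Slc1a2 was called higher in the other pericentral spots than at the far end (edgeR adjusted p = 1.07e-07). Cps1 ran from 2387 ± 539 through 1891 ± 336 and 1222 ± 253 to 771 ± 204 CPM. Intermediate spots lay between rim and other pericentral spots for both genes.

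Some genes were called in opposite directions by the 2 comparisons. Vwf, Eln, Col1a1, Col1a2 and Col3a1, of which a high rim helped Vwf into the rim test, were higher in the rim and lower in the other pericentral spots than at the far end, with log2 differences of -1.41, -1.68, -1.50, -0.81 and -0.68. Vwf was at 10.3 ± 2.91 CPM (SD, n = 3) at the far end, 3.85 ± 1.70 in the other pericentral spots and 39.6 ± 4.02 in the rim, so its lowest level was in the middle of this path. In the lobule, portal tracts carry vessels and bile ducts of their own. All 6 bile duct genes tested in this comparison were lower in the other pericentral spots than at the far end. The part of portal tracts in the values of Vwf, Eln and the collagens was not tested. The opposite order was found for Cyp3a44, Cyp8b1, Mup17, Ces1e and Mpc1, a carrier of pyruvate into mitochondria. They were higher in the other pericentral spots than at the far end by 1.18, 0.35, 0.99, 0.25 and 0.27 and then lower in the rim by 1.12, 0.65, 0.54, 0.62 and 0.32. Each was at a lower CPM in the rim of all 3 sections, although Cyp3a44 in NEJ677 had only 1 UMI in the rim and 6 in the comparison.

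Levels were also read by distance, with all used spots ordered by array steps from the nearest rim spot. Glul, which chose the rim, was at 429.9, 828 and 520.3 CPM at 1 step in NEJ638, NEJ654 and NEJ677 and 241, 405 and 240.1 CPM at 2 steps. Slc1a2 was at 134, 232 and 119.9 CPM at 1 step and 64.8, 102 and 52.4 CPM at 2. Rhbg was at 47.1, 63.1 and 38.3 CPM at 1 step and 22.4, 26.4 and 18.2 CPM at 2. Slc1a2 and Rhbg thus lost most of their rim level within 1 step. Cyp1a2 fell less, to 804, 779.6 and 636 CPM at 1 step and 553, 523 and 402 CPM at 2. Cyp2f2 ran the other way, with 252, 241 and 339 CPM in the rim, 376, 327 and 426 at 1 step and 808, 687 and 1002 at 2. Rim spots were chosen for high Glul among spots high in Cyp2e1, so part of the fall of both over the first step is fixed by the choice. Cyp2e1 fell from 5579, 7282 and 6107 CPM in the rim to 3812, 5532 and 4512 CPM at 1 step. How far Slc1a2, Rhbg, Cyp1a2 and Cyp2f2 followed the choice of spots was not tested.

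**Figure D5:**
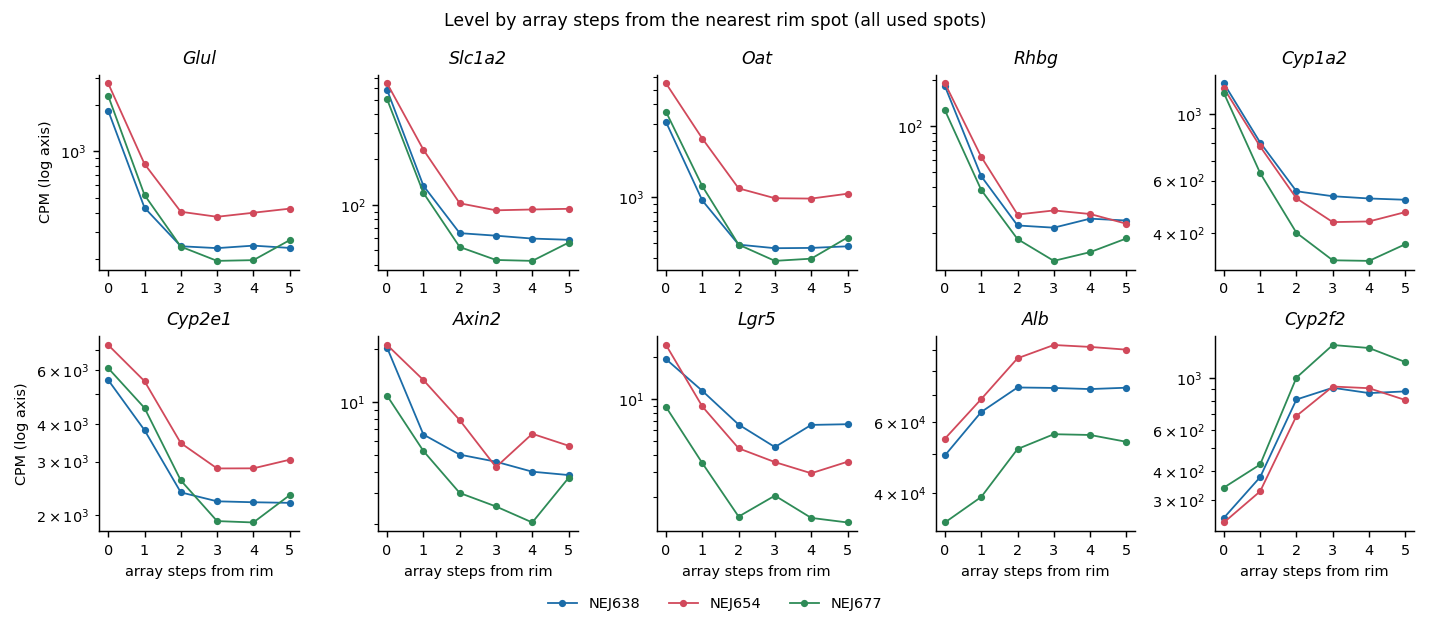
CPM on log axes against array steps from the nearest rim spot (0 is the rim), 1 line per section, over all used spots. Glul, Slc1a2, Oat and Rhbg drop over 1 to 2 steps, while Alb and Cyp2f2 rise.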

How the data were processed

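RNA was measured on Visium slides, and the files deposited by the authors hold unnormalised UMI counts for each gene in each spot, with spot positions. The submitters' processing notes name Space Ranger 1.3, the labels name mm10, and the matrix headers name Cell Ranger. No doublet caller was run, and 92, 34 and 300 spots over tissue with under 2000 UMIs were left out of NEJ638, NEJ654 and NEJ677. These sections held 70438823, 74596759 and 64955652 UMIs. Of the slide's barcodes, 4991 were listed in all 3 sections, since slides share 1 barcode design. Tumour sections were not used here.

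Counts were summed per section and side, and genes of low count were removed with filterByExpr. Sums were scaled by TMM and tested with edgeR 4.0.16 (limma 3.58.1, R 4.3.3, quasi-likelihood), with Benjamini-Hochberg adjustment over all 10631 genes. CPM divides by the full sum. The 2 sums of a section come from the same tissue, which is what pairs them in the block. An exact sign-flip test over 3 sections cannot go below a p of 0.25 and was not used. Spots were drawn to 2000 UMIs for shares and gene numbers (Python 3.11.15). The fit was tested on simulated data.

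Named genes were the 15 largest and 15 smallest differences among genes called, alike in all 3 sections and at a mean of at least 20 CPM, up to 5 called members of each list, a fixed set of 21 genes, and up to 5 genes in each direction called oppositely by the 2 comparisons. The other list members are named as counted in their list, and some named genes are not reported here. The spots, genes and lists were chosen with earlier results of these data known. Alternatives were DESeq2 1.42.0, limma-voom, other scaling, filters, UMI minimums and rim limits, thinned sums, matched or touching spots, no block, and each section left out. Spots paired within 5% of Cyp2e1, spots away from edges and gaps, and spots low in vein genes were added after seeing the data.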

Additional observations from a re-analysis of the deposited data

How the results depend on the processing

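Over the alternatives, the 107 genes chosen for naming kept direction and call in 2047 readings, lost the call in 330, gained it in 2 and turned in 14. Of the lost calls, 102 came without the block, 43 in spots low in vein genes, 29 in thinned sums, 26 with DESeq2 and 26 in spots paired on Cyp2e1. The section as replicate block decided most calls: without it 6 genes were called in all, 6 higher and 0 lower, in place of 823, 427 and 396, and 19 in the comparison along the lobule in place of 1621. The calls over both directions, then higher and lower, were 316, 178 and 138 with DESeq2, 439, 240 and 199 within the upper of 6 parts by Cyp2e1, 174, 81 and 93 from sums thinned to 2000 UMIs a spot, and 482, 230 and 252 against spots matched on Cyp2e1. After seeing the data were added spots paired within 5% of Cyp2e1, with 339, 139 and 200 calls, and spots low in vein genes, with 139, 41 and 98 from 27 rim spots. Lower genes numbered 245 with total UMIs in place of TMM and 605 without a filter on low counts. Leaving out a section gave 373 to 445 higher and 323 to 378 lower genes in the rim, and 1057 (without NEJ654) to 1951 (without NEJ677) calls along the lobule. Signs turned for Col1a2 (-0.34), Col3a1 (-0.20), Col6a3 (-0.10), Znrf3 (-1.28) and Wnt2 (-0.045) in spots low in vein genes, for Dhcr7 (0.047) and Ier2 (0.043) in thinned sums, for Hba-a1 (0.042), Hba-a2 (0.17) and Cdh1 (0.15) in the upper of 6 parts, for Cdh1 (0.15) against matched spots, and for Hba-a2 (0.017), Cyp2f2 (0.023) and Cdh1 (0.0042) in paired spots. Fewer spots or UMIs entered the thinned, paired, matched and low-vein sums, and the cause of the other changes was not tested. Depth limits the lowest genes named, of which Wnt9b had 13, 6 and 14 UMIs in the rims.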
